A study of Mus musculus with 12 samples.

Results

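The genes described here are 10 secreted or nuclear factors of the stromal niche that surrounds the colonic crypts: the R-spondins Rspo1, Rspo2 and Rspo3, the BMP ligands Bmp2, Bmp4 and Bmp7, the BMP antagonist Grem1, the Wnt ligands Wnt2b and Wnt5a, and the transcription factor Foxl1. They were taken by name as 10 of 35241 gene symbols in the deposited RNA-seq table, of which 24755 were above 0 in some mouse. RNA came from full-thickness distal colon of 12 mice, so epithelium, lamina propria, muscle and the outer layers were read together. Of these, 6 were Spry2IEKO mice, homozygous for a floxed Spry2 and carrying Cre under the villin promoter, which is active in the intestinal epithelium and not in the stroma. The other mice were Spry2FF littermates, also 6, with both floxed Spry2 alleles and no Cre. Litter A and litter B each held 3 mice of each genotype, and 2 of the 6 mice in each litter were male. Because 3 of 6 Spry2FF mice and 1 of 6 Spry2IEKO mice were male, sex was not balanced between the genotypes. The labels give an age of 6 weeks in one place and 8 weeks in another, and mice are named here by genotype and the number in their label.

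Crypt stem cells lie next to fibroblasts and muscle cells that supply these factors. Wnt ligands bind Frizzled receptors and keep stem cells dividing, and R-spondins bind Lgr receptors and hold back the ligases Rnf43 and Znrf3, which would otherwise remove Frizzled from the cell surface. BMP ligands drive cells toward differentiation nearer the lumen, and Gremlin-1, made around the crypt base, binds BMPs and blocks them. Foxl1 marks telocytes, thin cells under the epithelium that carry Wnt5a and BMP ligands, while Rspo3 and Grem1 mark deeper stromal cells called trophocytes.

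The values are described as TPM, reads per length of transcript and per total of the library. Their totals ran from 918816 to 1069158 per mouse, so they were taken to be TPM scaled once more between mice, which no source used here states for this table, and are called normalized TPM below. They are not read counts, and the paper gives only an approximate depth common to the samples. The depth of each library is thus unknown, and a value of 0 says only that a gene is listed at 0. The targeted gene itself was lower in every Spry2IEKO mouse, with Spry2 at 18.5 to 22.5 normalized TPM against 22.8 to 32.3 in Spry2FF mice. In these whole-wall samples 5 of 15880 tested genes (0.0315%) passed an adjusted p of 0.05 between genotypes, whereas 696 (4.38%) passed between litters, 171 higher and 525 lower in litter B. Fat markers stood apart in Spry2IEKO mice 4 and 5 (summed level 441 and 692 normalized TPM, at most 63.0 in the other mice), and the litter calls of the members, marker lists and pathway genes are also given without them. Each litter has its own number prefix in the sample descriptions, so litter and whatever else that prefix stands for cannot be told apart.

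Since TPM is per length, levels may be set side by side between genes. Bmp2 had the highest level (mean 46.8 ± 7.15 normalized TPM, SD, n = 12), above 87.6% of all genes with any signal, and Grem1 followed (23.8 ± 5.67), lower than Bmp2 in 12 of 12 mice. Bmp4 came next (18.5 ± 6.04) and lay below Grem1 in 10 of 12 mice. Of the Bmp4 sum 42.5% came from the 258-base transcript Bmp4-204, described below. From coding transcripts alone Bmp4 was 7.69 to 13.4, under the lowest Grem1 value of 14.7. Rspo3 (4.77 ± 1.47), Wnt5a (3.09 ± 1.09) and Bmp7 (1.39 ± 0.333) stood in that order in 12 of 12 mice. Bmp7 and Wnt2b (1.38 ± 0.833) could not be ordered, each being the higher in 6 of 12 mice. Foxl1 (0.772 ± 0.280), Rspo1 (0.620 ± 0.378) and Rspo2 (0.397 ± 0.144) were at the bottom, and Foxl1 exceeded Rspo1 in only 7 of 12 mice. With all transcripts counted, the BMP ligands summed to 53.5 to 78.4 normalized TPM per mouse, the R-spondins to 2.88 to 9.87 and both Wnt ligands to 2.19 to 7.32.

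**Figure D1:**
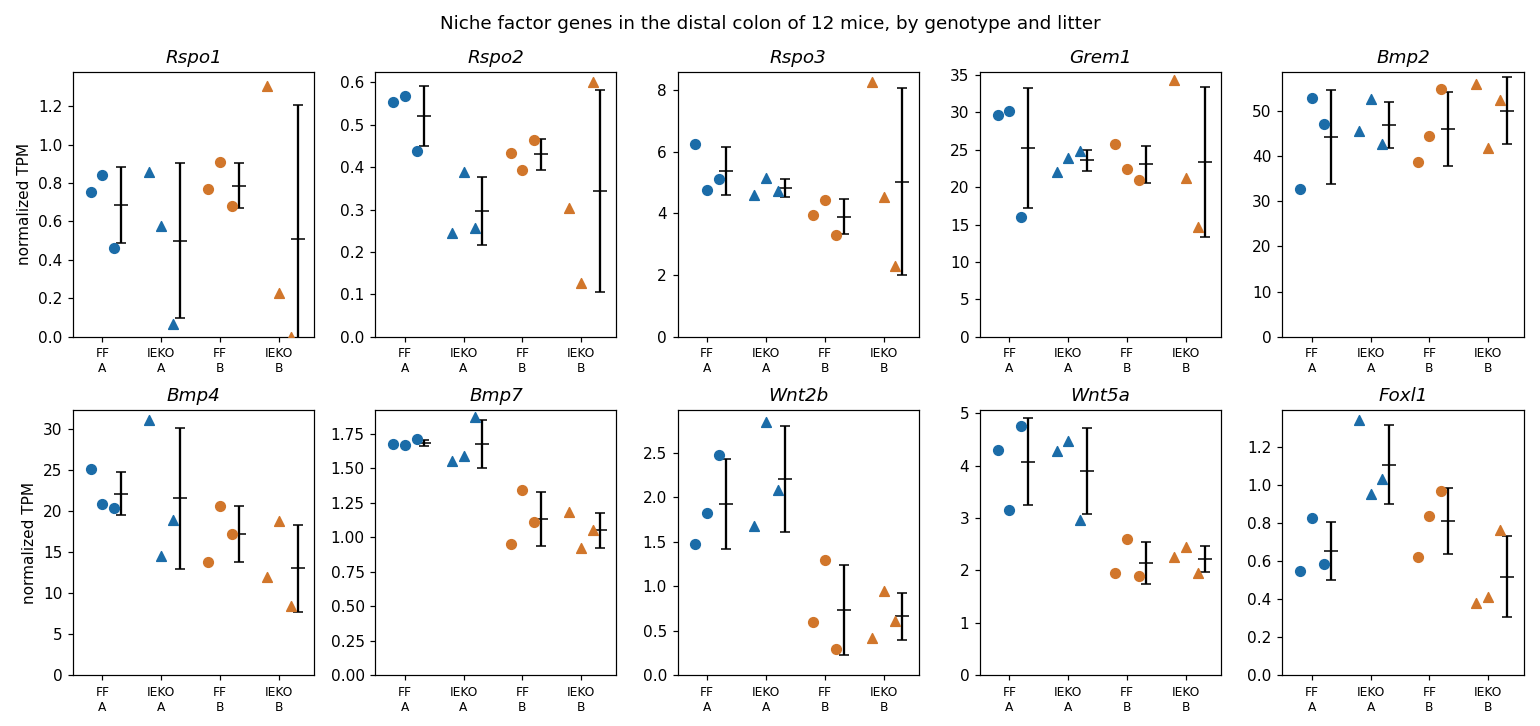
Normalized TPM of the 10 niche factor genes in each mouse, in 4 groups by genotype (circles Spry2FF, triangles Spry2IEKO) and litter (blue A, orange B), with the group mean and SD (n = 3) in black; axes start at 0, and lower error bars that would pass 0 end there. Wnt2b, Wnt5a and Bmp7 lie lower in all 6 mice of litter B than in any mouse of litter A, and no gene separates the genotypes.

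No difference in the niche factors was detected between mice with and without Spry2 in the epithelium. Of the 9 members with a mean of at least 0.5 normalized TPM, which were the ones tested, 0 passed the threshold between Spry2IEKO and Spry2FF mice in limma (against 0.0315% of all genes), and 0 had an unadjusted p under 0.05. By mean, 4 members were higher and 6 lower in Spry2IEKO mice, and the 2 genotypes overlapped for every member (0.403% of all genes did not overlap). For Bmp2 the difference in log2(normalized TPM + 0.5) was 0.12 (95% interval -0.15 to 0.39). It was -0.05 (-0.46 to 0.36) for Grem1 and 0.06 (-0.76 to 0.89) for Wnt2b. This fit had no litter term, so the difference between litters widened the interval of Wnt2b, which is only a loose bound. With litter as a covariate 0 of 9 tested members passed, and 0 had an unadjusted p under 0.05 in limma.

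Rspo3, the R-spondin with by far the highest level here, is encoded at chr10:29452416-29535867 (GRCm38, minus strand; ENSMUSG00000019880). It measured 3.30, 4.58 and 6.23 normalized TPM as lowest, median and highest in Spry2FF mice and 2.28, 4.65 and 8.27 in Spry2IEKO mice. The Spry2IEKO mice held both the lowest and the highest value, so their spread (SD 1.92) was wider than that of the controls (SD 1.01). The log2 difference was 0.03 ± 0.229 (SE; adjusted p = 0.992 by limma). Between litters Rspo3 was 5.08 ± 0.603 in A and 4.46 ± 2.04 in B (SD, n = 6), and 5 of 6 mice of litter B lay below every mouse of litter A, the exception being Spry2IEKO mouse 8 with the highest value of all. That difference did not pass (log2 -0.26, adjusted p = 0.544 by limma).

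Rspo1 and Rspo2, which act on the same Lgr receptors, were the members with the lowest levels. Rspo1 ran from 0.460 to 0.909 normalized TPM in Spry2FF mice, a narrow range, and from listed at 0 to 1.30 in Spry2IEKO mice. Its log2 difference of -0.44 ± 0.307 (adjusted p = 0.857 by limma) was the most negative of the tested members. Rspo1 was a mixture of the coding transcript Rspo1-201 (68.3% of the sum) and the short processed transcript Rspo1-202 (31.7%), which was listed at 0 in 7 of 12 mice. The coding transcript had a mean of 0.415 normalized TPM in Spry2FF and 0.432 in Spry2IEKO mice, and the processed one 0.320 and 0.0724, so the lower sum came from the processed transcript. With a pseudocount of 0.1 in place of 0.5 the log2 difference of Rspo1 was -0.995, still without passing (adjusted p = 0.839 by limma). Rspo2 had a mean under the filter and was not among the tested members. It was 0.392 to 0.568 normalized TPM in Spry2FF mice, while 5 of 6 Spry2IEKO mice were at 0.389 or below and the sixth, mouse 12, had the highest value of all at 0.600. The means were 0.475 ± 0.0703 and 0.320 ± 0.161 (SD, n = 6; two-sided exact permutation p = 0.0584 over 924 arrangements, smallest possible 0.00216), and with no filter limma gave a log2 difference of -0.27 (adjusted p = 0.866).

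Bmp2, expressed by differentiated epithelium as well as by stroma, was the steadiest member, with a coefficient of variation of 15.3% over the 12 mice. Its lowest, median and highest values were 32.7, 45.8 and 54.8 normalized TPM in Spry2FF mice and 41.7, 49.0 and 56.0 in Spry2IEKO mice. The ranges largely coincided (log2 difference 0.12 ± 0.125, adjusted p = 0.910 by limma). Litter A (45.6 ± 7.48) and litter B (48.0 ± 7.28; SD, n = 6) also differed by less than the spread between mice.

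Bmp4, a stromal BMP ligand and a known hedgehog target, varied more. It was 25.1, 20.9 and 20.3 normalized TPM in the Spry2FF mice and 31.1, 14.6 and 18.9 in the Spry2IEKO mice of litter A. In litter B it was 13.8, 20.6 and 17.2 in Spry2FF mice and 11.9, 18.8 and 8.39 in Spry2IEKO mice. The genotypes overlapped over most of their range (log2 difference -0.27 ± 0.252, adjusted p = 0.895), and litter B had the lower mean without passing (15.1 against 21.8; log2 -0.54 ± 0.211, adjusted p = 0.162, both by limma).

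The sum for Bmp4 (chr14:46383520-46390669, GRCm38, minus strand; ENSMUSG00000021835) rested on an unusual transcript. Bmp4-204, annotated as a retained intron of 258 bases, made up 42.5% of it, the coding transcripts Bmp4-202 and Bmp4-201 28.3% and 25.0%, and Bmp4-203, another retained intron, 4.11%. Bmp4-204 was listed at 0 in Spry2IEKO mouse 5, was at 4.18e-08 in mouse 12 and reached 20.1 in mouse 4. Of its 258 bases, 234 are also in Bmp4-201, so reads over those bases cannot be assigned to one transcript with certainty. Both pieces are shown because they mark what is private to Bmp4-204 and what it shares: the 24 bases at chr14:46387281-46387304 are its own, with the last intron bases before the exon of Bmp4-201 in capitals, and the 102 bases at chr14:46385986-46386087 are coding sequence common to Bmp4-201 and Bmp4-202, with the start codon in capitals (GRCm38, minus strand, 5′ to 3′).
Bmp4-204 own bases: attatattcaaatattcattttAG
Bmp4 shared coding bases: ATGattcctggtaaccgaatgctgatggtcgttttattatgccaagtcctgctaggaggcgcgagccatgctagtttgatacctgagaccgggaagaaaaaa
With the coding transcripts alone, Bmp4 became less scattered and the litters came apart: litter A ran from 9.81 to 13.4 normalized TPM and litter B from 7.69 to 9.45. The log2 difference between litters was then -0.39 ± 0.102 (adjusted p = 0.0510 by limma), just outside the threshold, and that between genotypes was -0.0572 in place of -0.27 (adjusted p = 0.967 by limma); this restriction to coding transcripts was chosen after the values were seen.

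**Figure D2:**
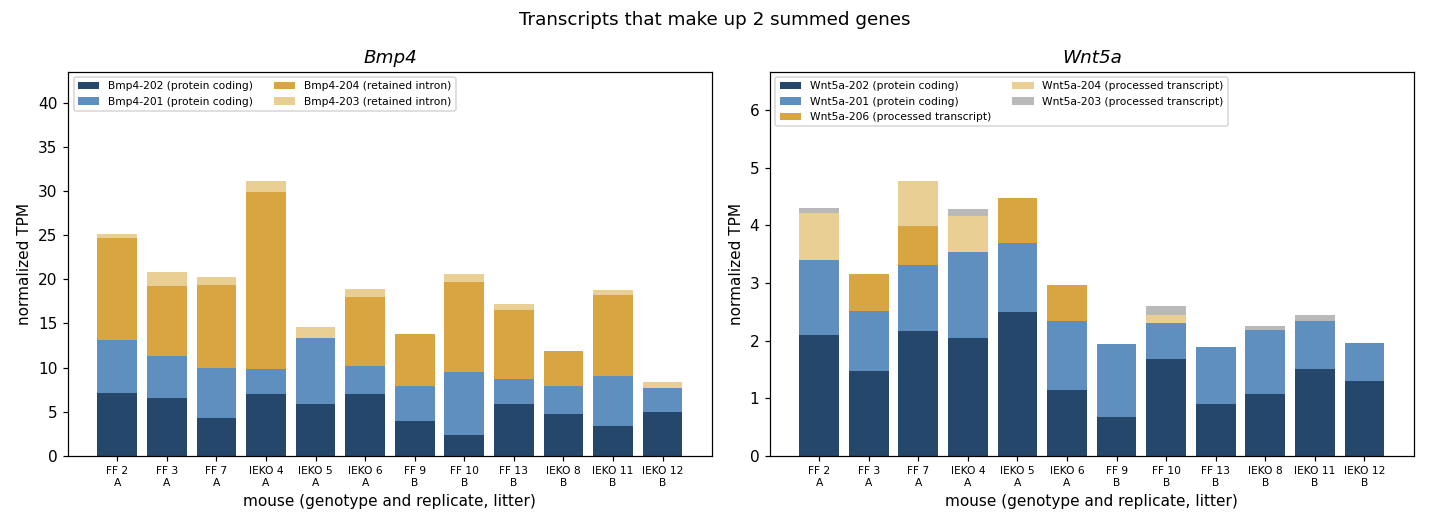
Stacked normalized TPM of the annotated transcripts of Bmp4 (left) and Wnt5a (right) in each of the 12 mice, litter A first; blue bars are protein-coding, the others are not. The short Bmp4-204 ranges from 0 to 20.1 between mice, and the short Wnt5a-204 and Wnt5a-206 appear almost only in litter A.

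Bmp7 (chr2:172868012-172940321, GRCm38, minus strand; ENSMUSG00000008999), a further BMP ligand, came from a single transcript and split by litter without overlap. In litter A it was 1.68, 1.67 and 1.71 normalized TPM in Spry2FF mice and 1.56, 1.59 and 1.88 in Spry2IEKO mice. In litter B it was 0.950, 1.34 and 1.11 in Spry2FF mice and 1.18, 0.924 and 1.05 in Spry2IEKO mice. The 6 values of litter B all lay below the 6 of litter A, and the genotypes were interleaved within each litter. The mean was 1.54-fold higher in litter A (exact permutation within genotypes, p = 0.005, the smallest that 400 arrangements allow), but over all genes it missed the threshold (log2 -0.46 ± 0.128, adjusted p = 0.0634 by limma).

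Grem1 (chr2:113746164-113758646, GRCm38, minus strand; ENSMUSG00000074934), the antagonist of these ligands, did not follow genotype or litter. Its lowest, median and highest values were 16.0, 24.1 and 30.2 normalized TPM in Spry2FF mice and 14.7, 23.0 and 34.4 in Spry2IEKO mice. Litter means were 24.4 ± 5.23 in A and 23.2 ± 6.52 in B (SD, n = 6; log2 difference -0.09, adjusted p = 0.829 by limma). Per 100 normalized TPM of the 3 BMP ligands there were 37.3 ± 10.7 of Grem1 in Spry2FF and 35.0 ± 9.02 in Spry2IEKO mice. This ratio counts all transcripts of Bmp4, 42.5% of which was Bmp4-204, and it was not worked out from coding transcripts.

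Grem1 differed between the sexes and went with the level of smooth muscle markers. The 4 males had 25.7 to 34.4 normalized TPM of Grem1 and the 8 females 14.7 to 24.8, a separation that 1.10% of all tested genes showed; it was looked for after the values were seen. In the same mice the summed level of 10 smooth muscle markers (among them Myh11, Acta2 and Actg2) was 6542 to 9764 in males and 3909 to 6129 in females. Across the 12 mice Grem1 and that sum had a Pearson r of 0.886 and a Spearman rho of 0.916 on the log2 scale (permutation p = 0.00019 and 0.0001 from 100000 resamples; adjusted over 40 relations 0.0076 and 0.004). Both separate the sexes without overlap, so these values partly restate sex, and their p-values cannot tell the relation from it. Within litters r was 0.737 in A and 0.982 in B (n = 6), and without the 2 mice farthest from the median muscle level it was 0.826. Those subsets still mixed the sexes. Among the 8 females alone r was 0.763, and 4 males were too few for a value. With litter and sex as covariates the genotype difference of Grem1 was 0.15 in place of -0.05, and neither passed (adjusted p = 0.924 and 0.979 by limma). For Rspo3 and the muscle sum r was 0.805 (permutation p = 0.00229, adjusted 0.0153) and rho 0.608 (p = 0.0397, adjusted 0.132), with r = 0.791 in litter A, 0.906 in litter B and 0.765 among the 8 females, and falling to r = 0.566 without the 2 farthest mice, so this relation rested in part on them. Rspo3 also went with the summed level of 10 fibroblast markers, which separates the litters. There rho was 0.769 (permutation p = 0.00475, adjusted 0.0380) and r was 0.634 (p = 0.0224, adjusted 0.0898). The r was 0.202 in litter A, 0.854 in litter B, 0.797 among the 8 females and 0.469 without the 2 farthest mice. The relation of Rspo3 was thus not particular to muscle. The values of a mouse come from 1 library and share its scaling. The parts of muscle content, fibroblast content and sex in these relations were not tested.

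**Figure D3:**
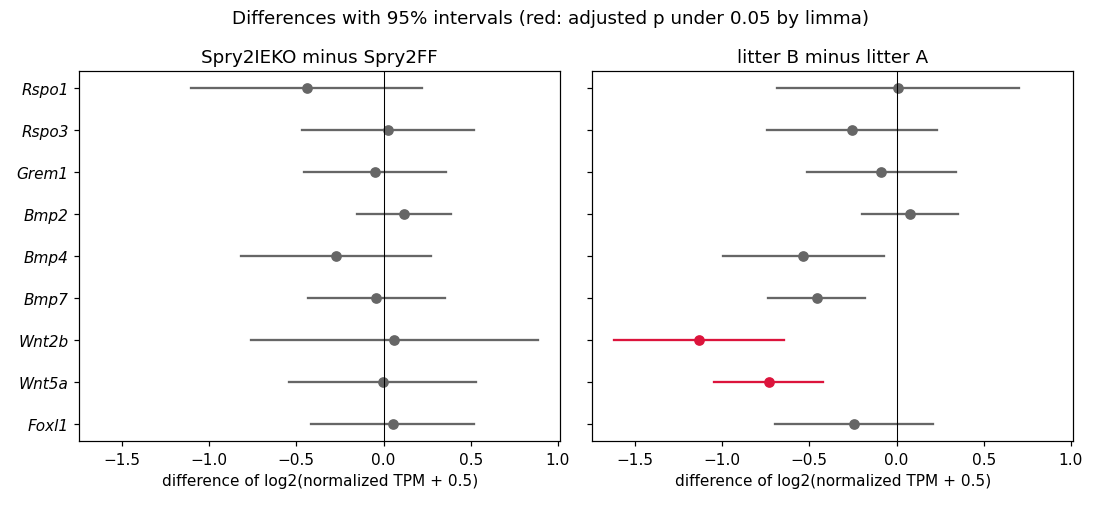
Differences in log2(normalized TPM + 0.5) with 95% intervals for the 9 tested members, Spry2IEKO minus Spry2FF (left) and litter B minus litter A (right); red marks an adjusted p under 0.05 in limma. All intervals for genotype include 0, and Wnt2b (-1.13) and Wnt5a (-0.73) are red for litter.

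The clearest difference among the niche factors was in the Wnt ligands, and it lay between litters. Both were lower in every mouse of litter B than in any mouse of litter A, in both genotypes. In limma 2 of 9 tested members passed between litters, against 4.38% of all genes, both of them lower in litter B. Counting separation instead, 3 members did not overlap between litters, against 3.72% of all genes. By mean, 8 of the 10 members were lower in litter B.

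Wnt2b (chr3:104945272-104961921, GRCm38, minus strand; ENSMUSG00000027840), a canonical Wnt ligand of the stroma, was 1.48, 1.83 and 2.48 normalized TPM in Spry2FF and 1.68, 2.85 and 2.08 in Spry2IEKO mice of litter A. In litter B it was 0.602, 1.29 and 0.298 in Spry2FF and 0.421, 0.948 and 0.611 in Spry2IEKO mice. The highest mouse of litter B was thus still under the lowest of litter A, and the mean level was 2.97-fold higher in litter A. The log2 difference was -1.13 ± 0.224 (SE; 95% interval -1.62 to -0.64, adjusted p = 0.0212 by limma; exact permutation p = 0.005). All of the signal came from the coding transcript Wnt2b-201.

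Wnt5a (chr14:28504750-28527448, GRCm38, plus strand; ENSMUSG00000021994), a ligand that acts mainly through non-canonical pathways and is found in telocytes, was 4.31, 3.16 and 4.77 normalized TPM in Spry2FF and 4.28, 4.47 and 2.96 in Spry2IEKO mice of litter A. In litter B it was 1.94, 2.60 and 1.89 in Spry2FF and 2.26, 2.44 and 1.96 in Spry2IEKO mice. No value of litter B reached the lowest of litter A, and the mean was 1.83-fold higher in litter A (log2 difference -0.73 ± 0.143, SE; 95% interval -1.05 to -0.42, adjusted p = 0.0200 by limma; exact permutation p = 0.005).

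Part of that gap came from short non-coding transcripts. The coding transcripts Wnt5a-202 and Wnt5a-201 made up 50.0% and 34.8% of the sum. The processed transcripts Wnt5a-206 (361 bases) and Wnt5a-204 (337 bases) were 0.455 and 0.371 normalized TPM on average in litter A, whereas in litter B the first was listed at 0 in all 6 mice and the second in 5 of 6. From coding transcripts alone Wnt5a was 2.35 to 3.69 in litter A and 1.89 to 2.33 in litter B, still without overlap, but its log2 difference shrank to -0.47 ± 0.134 and no longer passed (adjusted p = 0.0680 by limma).

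Both Wnt calls were close to the threshold. Each was lost without Spry2FF mouse 9 (adjusted p = 0.0527 for Wnt2b and for Wnt5a by limma), without Spry2FF mouse 13 (0.0505 and 0.0522) and without Spry2IEKO mouse 5 (0.0571 and 0.0564), and without both fat-rich mice, Spry2IEKO 4 and 5, the values were 0.108 and 0.132. The differences themselves hardly moved: leaving out any 1 mouse gave -1.28 to -1.02 for Wnt2b and -0.81 to -0.68 for Wnt5a.

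Stromal markers moved in the same direction. Of 10 fibroblast markers 7 were lower in litter B, among them Col3a1, a fibrillar collagen chain (log2 -0.93, adjusted p = 0.00944), and Pdgfra, a receptor of crypt-associated fibroblasts (-0.73, adjusted p = 0.0167 by limma). Their summed level was 537 to 862 normalized TPM in litter A and 298 to 525 in B. All 6 endothelial markers were lower, with sums of 47.6 to 87.1 and 21.9 to 36.0, and of the lymphatic endothelial markers 5 of 6, with sums of 80.3 to 202 and 15.0 to 99.2. No fibroblast or endothelial marker was at 0 in any mouse. Among 6 markers of trophocytes only Cd34 and Ackr4 passed, both lower, and their sums overlapped (445 to 524 in A, 383 to 586 in B). Most of these calls were lost without the fat-rich mice: without Spry2IEKO 4 and 5, 0 of 10 fibroblast, 1 of 6 endothelial (Cdh5, log2 -0.98, adjusted p = 0.0439 by limma), 0 of 6 lymphatic and 0 of 6 trophocyte markers passed between litters, when 18 of all genes did. All 10 fibroblast, 6 endothelial and 6 lymphatic estimates were still negative, with 7, 6 and 5 at an unadjusted p under 0.05 in limma, and Col3a1 was at -0.85 (adjusted p = 0.0759). Calls among all genes also fell to 210 without Spry2FF mouse 9 and 227 without Spry2FF mouse 13. They rose to 718 without Spry2FF mouse 10 and 957 without Spry2IEKO mouse 8. No other pair was left out, so the fat-rich mice cannot be told from fewer mice as the reason.

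Muscle and epithelial markers gave 1 call between them. None of 10 smooth muscle markers passed between litters, with sums of 4585 to 8338 and 3909 to 9764, and of 10 epithelial markers Cdh1 alone did (lower, log2 -0.22, adjusted p = 0.0282 by limma), with sums of 8284 to 10438 and 9561 to 12217. Cd68, a macrophage protein, was the 1 of 8 leukocyte markers to pass (lower), and none of the glial, mesothelial, fat or skeletal muscle markers did. By estimate, all 8 leukocyte (median log2 -0.75), 5 fat (-1.67) and 2 mesothelial markers tested (-0.57) were lower in litter B, where the fibroblast median was -0.74. So were 4 of 5 glial and 2 of 4 skeletal muscle markers. Without Spry2IEKO mice 4 and 5 all 8 leukocyte and 2 mesothelial estimates were still lower, and 3 of 5 fat estimates were. Cdh1 (adjusted p = 0.105) and Cd68 (0.147 by limma) did not pass without Spry2IEKO mice 4 and 5. The part of fibroblast, vessel, leukocyte, fat and mesothelial content in the lower Wnt2b, Wnt5a and Bmp7 was not tested. In whole-wall RNA fewer cells of a type and less RNA per cell cannot be told apart. Neither the fibroblast sums nor the values of Wnt2b, Wnt5a and Bmp7 overlap between litters, so their correlation over all 12 mice would only restate the litters. Within litters (n = 6 each, described without a test) r with the fibroblast sum was 0.188 in A and 0.689 in B for Wnt5a, 0.00828 and 0.203 for Wnt2b, and -0.671 and 0.679 for Bmp7, which thus changed sign between the litters.

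**Figure D4:**
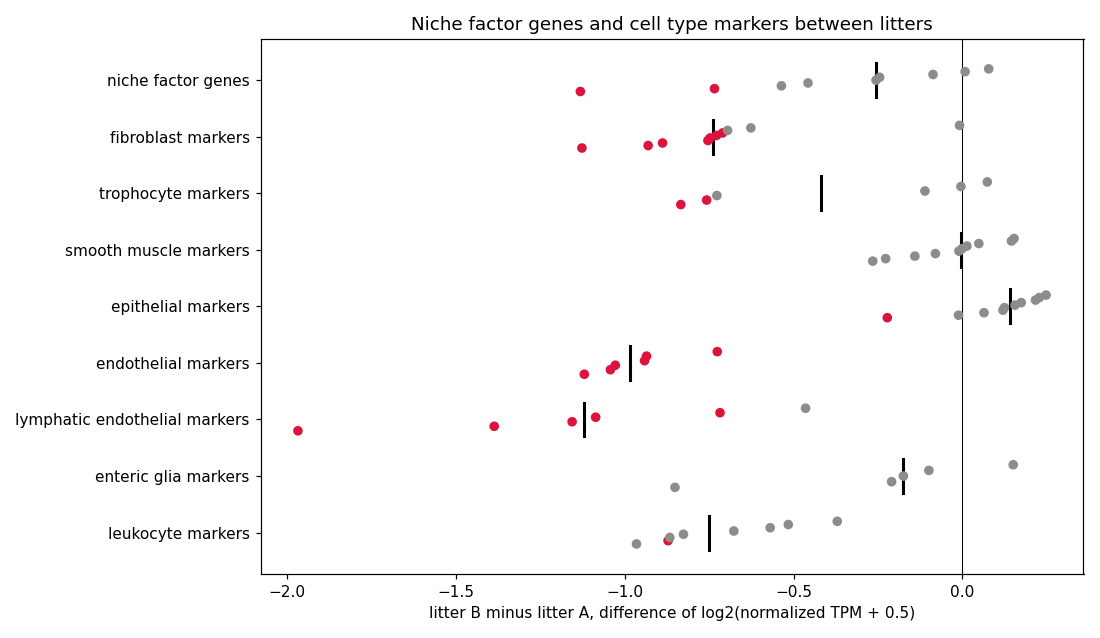
Litter B minus litter A in log2(normalized TPM + 0.5) for the tested niche factor genes and for markers of 8 cell types; each point is a gene, red points passed an adjusted p of 0.05 in limma, and black bars are medians. Fibroblast, endothelial and lymphatic markers lie well to the left, smooth muscle markers around 0.

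**Figure D5:**
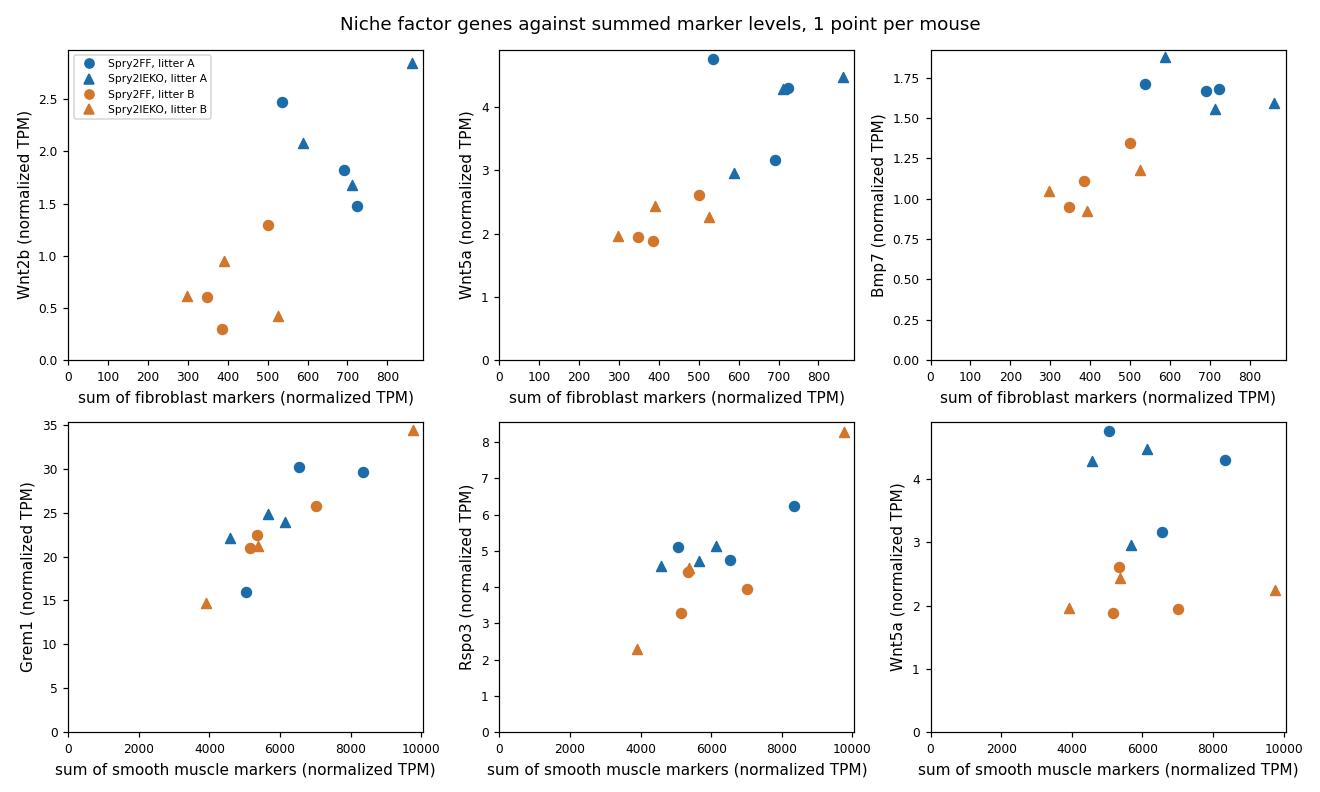
Normalized TPM of single niche factor genes against summed marker levels, 1 point per mouse (circles Spry2FF, triangles Spry2IEKO, blue litter A, orange litter B). Wnt2b, Wnt5a and Bmp7 separate by litter along the fibroblast sum, and Grem1 climbs with the smooth muscle sum in both litters (r = 0.737 and 0.982, sexes together).

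Foxl1 (chr8:121127940-121130644, GRCm38, plus strand; ENSMUSG00000097084), the telocyte transcription factor, had the largest interaction estimate of the 9 tested members. In litter A it was 0.547, 0.828 and 0.586 normalized TPM in Spry2FF mice and 1.34, 0.950 and 1.03 in Spry2IEKO mice. In litter B it was 0.621, 0.837 and 0.967 in Spry2FF mice and 0.379, 0.412 and 0.761 in Spry2IEKO mice. All 3 Spry2IEKO mice of litter A were thus above their controls, and 2 of 3 in litter B were below theirs. The interaction of genotype and litter was -0.85 ± 0.352 on the log2 scale (unadjusted p = 0.0338, adjusted p = 0.998 by limma) and did not pass. Among all genes 2 passed for the interaction (0.0126%), and of the 9 tested members 0 did.

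The rest of these pathways was examined through 10 lists of 109 genes, of which 75 were tested. None passed between genotypes, and 4 (5.33%) had an unadjusted p under 0.05 in limma, against 6.18% of all genes. Between litters 4 (5.33%) passed, against 4.38% of all genes, all lower in litter B, and 65 of 75 (86.7%) were lower, against 58.8% of all genes; the median log2 difference was -0.19 against -0.05 over all genes. How far such a tilt goes depends on scaling: of all litter calls 75.4% were lower as deposited (median of all genes -0.05), 92.8% after rescaling the mice to equal totals (median -0.12) and 56.2% after quantile normalization (median 0.01). Wnt2b and Wnt5a were lower and passed under each of these. Without the fat-rich mice, Spry2IEKO 4 and 5, none of the 4 pathway genes passed, the adjusted p being 0.0908 for Fzd1, 0.146 for Fzd4, 0.145 for Bmp6 and 0.0935 for Hhip (limma), with estimates of -0.77 to -0.45 on the log2 scale.

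On the receiving side of the Wnt ligands, Fzd1 and Fzd4, both Frizzled receptors, were lower in litter B (log2 -0.58, adjusted p = 0.0197, and -0.68, adjusted p = 0.0331 by limma), the 2 of 14 tested genes for Wnt release and reception to pass. Wls, which carries Wnt ligands to the cell surface, had a mean of 105 normalized TPM in litter A and 92.5 in litter B (adjusted p = 0.0532). Of the co-receptors, Lrp6 was at 44.8 and 45.3 and Lrp5 at 16.4 and 13.3 (adjusted p = 0.161). None of 4 tested other Wnt ligands passed, Wnt4 coming nearest (1.85 and 1.20, adjusted p = 0.0938), with Wnt8b at 2.98 and 2.34 (adjusted p = 0.475). None of 8 secreted Wnt inhibitors passed either, although 7 of 8 had lower estimates in litter B, with Sfrp2 at 5.01 and 3.22 (adjusted p = 0.0540) Dkk3 at 18.9 and 14.7 (adjusted p = 0.126) and Sfrp1 at 8.96 and 6.71 (adjusted p = 0.297). Wif1, another of them, was at 1.11 and 1.07.

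R-spondin receptors and Wnt target genes, known mainly from the epithelium, gave no call in any comparison. Lgr4, the receptor with the highest level, was at 112 and 101 normalized TPM in litters A and B (adjusted p = 0.210 by limma). The ligase gene Rnf43, which is also a Wnt target, had the lowest unadjusted genotype p of both lists, with a log2 difference of -0.42 ± 0.132 in Spry2IEKO mice (unadjusted p = 0.00742, adjusted p = 0.674 by limma). Of 10 epithelial markers 9 also had lower estimates in Spry2IEKO mice (median log2 -0.21), and 5 had an unadjusted p under 0.05 in limma, with 0 passing. The part of epithelial content in the lower Rnf43 was not tested. The feedback gene Axin2 differed by 0.09 ± 0.126 between genotypes and by -0.10 ± 0.125 between litters, within the spread between mice.

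In the BMP pathway, Bmp6 was the only other ligand of 5 tested to pass between litters (2.25 normalized TPM in A and 1.17 in B, log2 -0.73, adjusted p = 0.0285 by limma). Bmp5 had a similar estimate but missed the threshold (8.38 and 5.03, log2 -0.75, adjusted p = 0.0641), Bmp3 was at 14.5 and 14.1 and Bmp8b at 0.565 and 0.574. The 9 tested antagonists other than Grem1 all had negative estimates and none passed, with Twsg1 at 33.1 and 26.7 (adjusted p = 0.0635) and Nbl1 at 46.1 and 45.5. None of 9 receptors and Smads and none of 8 BMP target genes passed in any comparison. Smad4, the shared partner of the receptor-activated Smads, had a genotype difference of -0.17 ± 0.0614 (unadjusted p = 0.0178, adjusted p = 0.733 by limma), and Smad1, which BMP receptors activate, was at 34.4 and 35.0 in litters A and B. The receptor gene Acvr1 was at 17.4 and 14.1 (adjusted p = 0.103). The target Id1, an inhibitor of differentiation factors, was at 163 and 170 in litters A and B and differed by 0.09 ± 0.114 between genotypes on the log2 scale. Its relative Id2 was at 36.4 and 34.4, and Atoh8 at 4.69 and 3.22 (adjusted p = 0.0741). Bambi, a decoy receptor, had a genotype difference of 0.27 ± 0.132 (unadjusted p = 0.0581, adjusted p = 0.826 by limma).

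Hedgehog signals from the epithelium act on Foxl1- and Bmp4-bearing stroma. Ihh, the ligand of the colonic epithelium, was at 44.9 normalized TPM in litter A and 38.0 in litter B (adjusted p = 0.232 by limma), and the signal transducer Smo at 12.6 and 11.2. Hhip, a hedgehog-binding inhibitor, was lower in litter B (2.85 and 1.67, log2 -0.65, adjusted p = 0.0465), the 1 of 9 tested genes of this list to pass. Gli1, a hedgehog target, had an estimate of 0.47 ± 0.177 between genotypes that did not pass (unadjusted p = 0.0193, adjusted p = 0.733 by limma).

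Genes most like each member were listed by Pearson r of log2(normalized TPM + 0.5) over the 12 mice, among 10707 genes with a mean of at least 5; these are descriptions, and litter and muscle content are shared by all of them. Wnt2b was most like Mmrn1, H6pd and Clip1 (r = 0.941 for each), and Wnt5a like Nckap1, Uhmk1 and Plpp3 (r = 0.943 to 0.954). Bmp7 came nearest to Ctsk, Fkbp10 and Kdelr1 (r = 0.938 to 0.952). Of these 9 genes all but Kdelr1 (adjusted p = 0.0575) also passed between litters in limma, against 4.38% of all genes, with Mmrn1 at -1.79 on the log2 scale. They were picked for likeness to members that separate by litter, so these calls follow largely from the choice. Grem1 was nearest to Klhdc4 (0.972), Pdlim4 and Sspn, and Rspo3 to Sema3a (0.973), Mustn1 and Eif4b. For the remaining members r was lower: Bmp4 with Ywhae (0.884) and Supt16, Foxl1 with Wnk1 (0.867), Lrrc47 and Rps2-ps10, Rspo1 with Retnla (0.866), Ap1m1 and Tsr3, and Bmp2 with Tmem35b (0.857), Il15ra and Vegfa. Among the members themselves the closest pair was Wnt2b with Wnt5a (r = 0.873).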

How the data were processed

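The assay was RNA-seq of whole distal colon wall, 1 library for each of 12 mice, grouped by the genotype and litter in the labels. The authors pseudoaligned the reads to the mouse transcriptome with kallisto and obtained TPM per transcript; the submitters' processing notes also name CASAVA, sleuth and the build mm10. The deposited signal was taken to be that TPM scaled once more between mice, since its totals differ, and the test planned for TPM was kept. The deposited p-values, q-values and other terms of the authors' own test were not used. The paper gives single-ended reads and an age of 8 to 10 weeks where the labels give paired-end sequencing and, for age, both 6 and 8 weeks.

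The 781 repeated entries of 113974 were dropped, date-like names of 28 genes were restored, and the transcripts of each gene were summed. The 10 members matched 24 transcripts, 21 of them above 0. Entries without a gene name held at most 0.0608% of a mouse's total. Comparisons used limma 3.58.1 in R 4.3.3 on log2(signal + 0.5), for genes whose mean reached 0.5 (two-sided moderated test with trend, p-values adjusted by Benjamini-Hochberg over 15880 genes), and the fit was tested on simulated data. No covariate was used for genotype, and genotype was a covariate for litter. Exact permutation tests were two-sided, and litters were exchanged within genotypes. Positions and transcript types are from GENCODE on GRCm38. Other steps ran in Python 3.11.15 with SciPy 1.17.1, NumPy 2.4.6, matplotlib 3.10.9 and pandas 2.3.3.

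The members and lists were chosen with earlier results of these data known. Named were all members, from each pathway list the genes that passed, the 2 highest and those with the lowest p by genotype and by litter, and for each tested member the 3 most like it; 1 item is not reported here. Alternatives were the pseudocount, the filter, rescaling, quantile normalization, covariates, each litter, genotype or females alone, and leaving out each mouse; coding transcripts only and leaving out both fat-rich mice were added after the data were seen. No read counts were at hand, and the paper gives depth only approximately, so no counting interval is given.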

Additional observations from a re-analysis of the deposited data

Results flagged for a closer look

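In 40 groups of 6 mice (each member within each genotype and each litter), Dixon's criterion singled out 2 values, both of Rspo3, where chance gives about 1 in 20 groups. Spry2FF mouse 2 had 6.23 normalized TPM in litter A, with the next value at 5.13, and its gap made up 0.665 of the range of that litter. Spry2IEKO mouse 8 had 8.27 in litter B, with the next value at 4.53, and its gap of 0.6252 of the range was barely above the critical value of 0.625. No value of any member was singled out within a genotype.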

How the results depend on the processing

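No member was called between genotypes or for the interaction under any alternative. Wnt2b and Wnt5a were lower in litter B under each alternative they could be fitted in and passed in 17 of 24 and 17 of 25. Bmp7 passed only after rescaling to equal totals (adjusted p = 0.0322 by limma). With no counts, no detection limit was worked out from the approximate depth in the paper, and levels under 1 normalized TPM are the least certain. Mice could not be paired 1 to 1, because no replicate number is shared between the genotypes. Litter could be used as a block, which the main genotype test did not do. With litter as a covariate 6 genes and 0 members passed between genotypes. Then 1302 genes had an unadjusted p under 0.05 in limma, against 981 without it.

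Calls among all genes between genotypes (5 as reported) were 1 with no filter, 2 after quantile normalization, 1 with litter and sex as covariates, 1 in litter A alone, 1 in litter B alone, 2 in females alone, 0 without Spry2IEKO mice 4 and 5 (770 genes at an unadjusted p under 0.05 in limma) and 1 to 11 when 1 mouse was left out. Between litters (696) they were 422 with no filter, 1456 after rescaling, 2 in Spry2FF mice alone, 1 in Spry2IEKO mice alone, 1 in females alone, 18 without Spry2IEKO mice 4 and 5, and 178 to 957 without 1 mouse, under 464 without any of 10 of the 12 mice. The interaction (2) gave 0 genes at a mean of at least 2 (529 at an unadjusted p under 0.05 in limma), 8 without Spry2IEKO mice 4 and 5, and 2 to 5 without 1 mouse. Members called between litters (2) were 1 at a mean of at least 2, where Wnt2b is no longer tested, 1 from coding transcripts, 0 in either genotype alone, in females alone or without Spry2IEKO mice 4 and 5, and 0 to 2 without 1 mouse. Fewer mice were fitted in the subsets; for the other changes the cause was not tested.

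Estimates near 0 changed sign, none of them a call. Between genotypes, quantile normalization gave -0.0407 for Rspo3, -0.01 for Wnt2b and -0.0355 for Foxl1. Litter and sex as covariates gave 0.15 for Grem1, -0.0511 for Wnt2b and -0.0554 for Foxl1. Litter A alone gave -0.13 for Rspo3, and litter B alone -0.0297 for Wnt2b, 0.0453 for Wnt5a and -0.37 for Foxl1. Females alone gave -0.0299 for Rspo3, 0.0972 for Grem1, -0.0554 for Bmp2 and 0.0811 for Wnt5a. Leaving out Spry2IEKO mice 4 and 5 gave -0.0025 for Rspo3, -0.25 for Wnt2b and -0.13 for Foxl1, and coding transcripts gave 0.0482 for Wnt5a. Between litters, Rspo1 was -0.10 with a pseudocount of 0.1, -0.0282 after rescaling, -0.11 in Spry2IEKO mice alone and -0.26 in females alone, Bmp2 was -0.0014 after rescaling, and Foxl1 was 0.18 in Spry2FF mice alone. Leaving out 1 mouse gave, between genotypes, -0.13 to 0.20 for Rspo3, -0.165 to 0.0737 for Grem1, -0.116 to 0.0322 for Bmp7, -0.15 to 0.25 for Wnt2b, -0.11 to 0.12 for Wnt5a and -0.0559 to 0.157 for Foxl1, and, between litters, -0.21 to 0.20 for Rspo1, -0.226 to 0.0401 for Grem1 and -0.0107 to 0.141 for Bmp2.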
